A study of Mus musculus with 6 samples.

Results

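Interferon-stimulated genes (ISGs) outside the Ifit, Oas and Gbp families were followed in the skin of 6 mice at the end of a diabetic ulcer experiment. The set holds 39 genes, found by exact symbol among the 57010 rows of the deposited expression table, each on 1 row. In 3 mice the skin had received CST, for which the series title gives cortistatin, a neuropeptide related to somatostatin, and in 3 it had received Yoda1, a synthetic agonist of the mechanosensitive channel Piezo1, both carried in a gel. All 6 mice are labelled WT and sampled as skin, and skin without either drug was not analysed here, so a lower value in CST skin is the same thing as a higher value in Yoda1 skin. The labels used here do not say how diabetes and the ulcers were produced or how old the mice were. The labels also tag the samples as keratinocytes, but marker transcripts of fibroblasts, macrophages and skeletal muscle were present beside the keratins, so the libraries are described as skin tissue.

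Type I interferons bind the receptor pair IFNAR1 and IFNAR2, whose kinases JAK1 and TYK2 phosphorylate STAT proteins. STAT2 and IRF9 are subunits of ISGF3, a factor that binds the interferon-stimulated response element (ISRE) in the promoters of its target genes. The products sense foreign RNA, block viral replication, tag proteins with ISG15 or feed back on the pathway, and cytosolic nucleic acid sensed through RIG-I or STING can start the cascade in keratinocytes, fibroblasts and myeloid cells of the skin.

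Values are FPKM, reads per kilobase of gene scaled to the depth of the library, and each change is the mean of log2(FPKM + 1) in CST minus that in Yoda1 skin with its standard error (SE) from limma. The depth recovered from the steps of the values was between 23791352 and 29620526 reads per library, and each of the 39 genes held at least 75 reads in each library. All 39 were among the 14588 genes kept by a filter on the average level, 1 FPKM or more. The share of mitochondrially encoded RNA was 6.07% for CST mouse 1, 7.08% for Yoda1 mouse 3 and 2.94% to 3.57% for the others, so those 2 libraries stood apart, and the main counts are also given without them.

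All 39 ISGs had a lower mean in CST than in Yoda1 skin, where 52.8% of all tested genes did. The median log2 change over the 39 was -0.71, against -0.01 over all tested genes, and single genes ran from -1.48 for Ifi44 to -0.23 for Sp100. The ratio of the Yoda1 to the CST mean FPKM ran from 1.19 to 3.51, with a median of 1.69. In 35 of the 39 the log2 change was -0.5 or lower, where 3.98% of all tested genes were below -0.5. No single ISG passed the threshold of an adjusted p of 0.05 by limma, where 0 of 14588 genes passed (0.0%), and their adjusted p ran from 0.521 to 1.000. The count was also 0 by limma-voom on the recovered reads, and 24 ISGs were then at an unadjusted p under 0.05 and lower in CST (1.12% of all tested genes). At an unadjusted p under 0.05 there were 22 of the 39, all lower in CST, where 0.788% of all tested genes stood there in that direction and 3.21% in the other. In 24 of the 39 each Yoda1 value lay above each CST value, against 2.08% of all tested genes, and in 0 the reverse held, against 4.52%. Over the 351 comparisons of 1 Yoda1 with 1 CST library, 9 for each gene, the Yoda1 value was the higher in 92.0%, where the same share over all tested genes was 49.5%.

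The count at an unadjusted p under 0.05 rested partly on single libraries. It was 11 without CST mouse 3 (0.412% of all tested genes) and 14 without Yoda1 mouse 2 (0.645%). The median log2 change stayed between -0.81 and -0.58 when any 1 library was left out. Without CST mouse 1 and Yoda1 mouse 3 together, the median was -0.86 and 25 ISGs stood at an unadjusted p under 0.05 (6.9% of all tested genes in that direction). There 37 of 39 ISGs did not overlap between the groups, but with 2 libraries a group 21% of all tested genes also stood there in that direction.

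**Figure D1:**
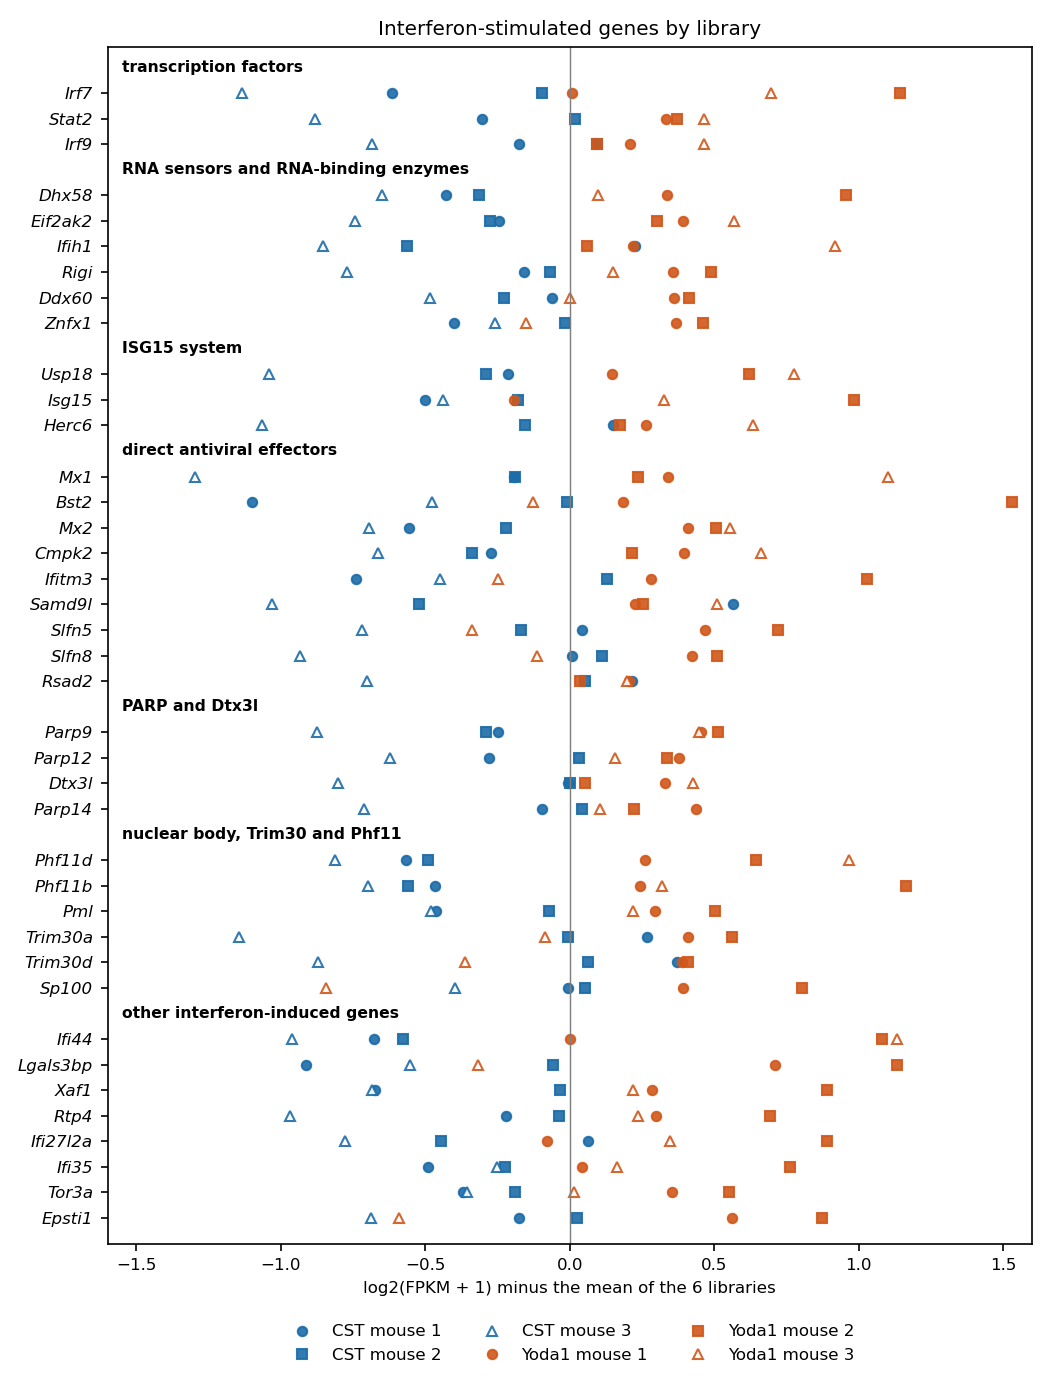
Each row is 1 interferon-stimulated gene, grouped by role and ordered by its change, and each symbol is 1 library, placed at its log2(FPKM + 1) minus the mean of the 6 libraries. Blue symbols (CST) lie mostly to the left of orange symbols (Yoda1), with CST mouse 3 lowest in 31 of the 39 rows and Yoda1 mouse 2 highest in 23.

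The libraries did not contribute evenly. CST mouse 3 held the lowest value in 31 of the 39 ISGs, where it did so in 17.7% of all tested genes, and CST mouse 1 held it in 7 (24.5%). Yoda1 mouse 2 held the highest value in 23 (16.5% of all tested genes) and Yoda1 mouse 3 in 12 (21.1%). Within the Yoda1 group the order of the libraries differed among the ISGs. Yoda1 mouse 2 was highest of its group in 23, where it was so in 32.5% of all tested genes. These 23 had a median level of 28.0 FPKM over the 6 libraries, among them Isg15, Irf7, Bst2, Ifitm3 and Lgals3bp. Yoda1 mouse 3 was highest of its group in 13, a count near its share of 33.8% over all tested genes. These 13 had a median level of 10.7 FPKM, among them Mx1, Mx2, Usp18, Ifih1, Herc6 and Ifi44. Of the 15 ISGs whose groups overlapped, 10 separated when Yoda1 mouse 3 was left out and 3 when CST mouse 1 was. With fewer libraries the share of all tested genes that did not overlap, lower in CST, was also larger, at 16.3% and 5.31% against 2.08%.

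The sequence that ISGF3 and the IRF proteins read was looked for in the promoters. The 39 were listed as ISGs, so the share of promoters that hold it describes the list and not the change. Of the 39, 29 had an entry in the RefSeq promoter table of GRCm38.p6, which spans 250 bases before to 50 after each start site. The genes with no entry were Rigi, Dhx58, Usp18, Mx1, Mx2, Parp9, Parp14, Ifi27l2a, Rtp4 and Tor3a. The ISRE core, spelled as GAAA, any 2 bases and GAAA again and searched on both strands, stood in 13 of the 29 (44.8%) and in 3.99% of the 27025 genes in that table. A STAT dimer core, TTCNNNGAA, stood in 4 of the 29 (13.8%) against 9.55% of all genes. The windows below are 8 stretches upstream of the RefSeq start site, around the ISRE core nearest to it, taken in the order of the genes' p. They were picked for holding the core, which 16 of the 29 genes lack in the span searched. Each runs 5′ to 3′ on the gene's strand, with every whole ISRE core in capitals, either as spelled or as its reverse complement.
Phf11b: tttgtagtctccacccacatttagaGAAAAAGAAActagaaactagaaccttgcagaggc
Stat2: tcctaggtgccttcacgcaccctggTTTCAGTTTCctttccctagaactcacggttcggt
Isg15: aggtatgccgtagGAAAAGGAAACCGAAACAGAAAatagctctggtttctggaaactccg
Bst2: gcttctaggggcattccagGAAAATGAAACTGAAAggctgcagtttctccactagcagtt
Ddx60: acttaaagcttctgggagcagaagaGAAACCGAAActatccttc
Slfn5: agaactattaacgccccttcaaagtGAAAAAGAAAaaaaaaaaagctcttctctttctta
Slfn8: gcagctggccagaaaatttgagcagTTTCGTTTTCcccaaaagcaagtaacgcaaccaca
Trim30a: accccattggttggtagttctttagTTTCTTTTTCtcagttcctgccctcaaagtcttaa

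On GRCm38.p6 these windows are Phf11b at chr14:59341346-59341405 on the minus strand, Stat2 at chr10:128270251-128270310 on the plus strand, Isg15 at chr4:156200850-156200909 on the minus strand and Bst2 at chr8:71537562-71537621 on the minus strand. The others are Ddx60 at chr8:61928043-61928086 on the plus strand, Slfn5 at chr11:82951922-82951981 on the plus strand, Slfn8 at chr11:83020824-83020883 on the minus strand and Trim30a at chr7:104465195-104465254 on the minus strand. The Slfn5 window lies before the RefSeq start but inside the gene as GENCODE M21 places it (82951349 to 82964840). Bases after the RefSeq start were found in a GENCODE M21 transcript of the same gene for 26 of the 29. In Isg15 the core stood 3 times in overlapping copies from 78 to 57 bases before the start site, and in Bst2 it stood 2 times from 130 to 115 bases before it. The longer repeat of 3 GAAA units with 2 bases between each, which contains overlapping cores, was found in these 2 genes of the 29 (6.90%) and in 0.133% of all genes. In Stat2, Slfn8 and Trim30a the printed core lies on the other strand and is seen as its reverse complement. In Phf11b, Ddx60, Slfn8 and Trim30a the core began 50 bases or less before the start used, and the Stat2 core lay 222 to 213 bases before it. A match in these letters describes the window only, and whether a factor bound there was not measured.

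**Figure D2:**
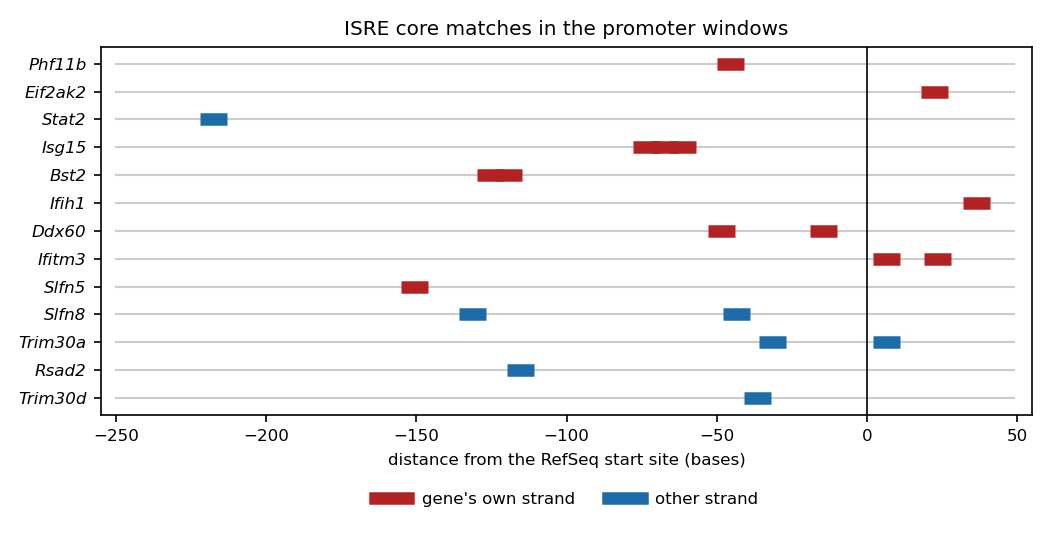
Positions of the ISRE core in the promoter windows of the 13 interferon-stimulated genes that hold it, as distance in bases from the RefSeq start site, with red for matches on the gene's strand and blue for the other strand. Slfn8 and Trim30a have 2 RefSeq start sites each, drawn on 1 line; in 10 of the 13 genes at least 1 core lies before the start.

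The 13 ISGs with a core had a median log2 change of -0.71 and the 16 with an entry but no core one of -0.67, with the ranges from -1.15 to -0.29 and from -1.48 to -0.23. The groups did not overlap in 4 of the 13 and in 11 of the 16, against 2.08% of all tested genes lower in CST. Ifi44, Phf11d and Irf7, which are among the ISGs with the largest changes, held no core in this window, which says only that these letters are not in it.

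The transcription factors of the response come first. Irf7, which is itself induced by interferon and then drives interferon-alpha genes (chromosome 7, 141262706 to 141266481 on GRCm38), measured 72.02, 104 and 49.97 FPKM across CST mice 1 to 3, against 111, 246 and 180.3 FPKM across Yoda1 mice 1 to 3. Each Yoda1 value lay above each CST value, although Yoda1 mouse 1 was close to CST mouse 2, and the log2 change was -1.23 (SE 0.36). Stat2, the ISGF3 subunit that carries the activation domain, measured 25.8, 32.5 and 16.96 in the CST mice and 40.6, 41.7 and 44.6 in the Yoda1 mice, a log2 change of -0.78 (SE 0.26). The 3 Yoda1 values of Stat2 were close together and the CST values spread, with CST mouse 3 lowest. Irf9, the DNA-binding subunit of ISGF3, measured 19.6, 23.8 and 13.5 in the CST mice and 25.9, 23.9 and 31.1 in the Yoda1 mice. Its groups did not overlap by a narrow gap, since Yoda1 mouse 2 and CST mouse 2 were almost equal, and the log2 change was -0.51 (SE 0.25).

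The RNA sensors and RNA-binding enzymes recognise double-stranded or unmodified RNA in the cytosol. Eif2ak2, the kinase PKR that stops translation on binding double-stranded RNA, measured 17.7, 17.2 and 12.2 FPKM across CST mice 1 to 3, against 27.96, 26.2 and 31.8 FPKM across Yoda1 mice 1 to 3. The groups were well apart, and the log2 change was -0.84 (SE 0.22) with an adjusted p of 0.579 by limma. Dhx58, which encodes the sensor LGP2, measured 19.04, 20.7 and 16.2 in the CST mice and 33.1, 51.3 and 27.9 in the Yoda1 mice, a log2 change of -0.93 (SE 0.26). Yoda1 mouse 2 was the highest, and the other Yoda1 values still lay above the CST values. Rigi, the sensor of short RNA with a 5′ triphosphate, measured 18.8, 20.1 and 11.96 in the CST mice and 27.4, 30.1 and 23.6 in the Yoda1 mice. Ifih1, which encodes the long double-stranded RNA sensor MDA5, measured 11.6, 6.29 and 4.96 in the CST mice and 11.5, 10.2 and 19.4 in the Yoda1 mice. Rigi did not overlap between the groups, whereas in Ifih1 CST mouse 1 stood at the level of Yoda1 mouse 1, and the log2 changes were -0.67 and -0.80. Ddx60, a helicase of the same response, had a log2 change of -0.52 with groups that did not overlap, and Znfx1, an RNA sensor on mitochondria, one of -0.45 with groups that did. In all, 4 of the 6 genes did not overlap, against 2.08% of all tested genes lower in CST. By limma 3 of 6 stood at an unadjusted p under 0.05, against 0.788%, and the group's median log2 change was -0.73.

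ISG15 is a ubiquitin-like protein that is joined to other proteins in interferon-treated cells. Isg15 (chromosome 4, 156199424 to 156200818 on GRCm38), whose window with 3 overlapping cores is printed above, measured 54.9, 68.9 and 57.4 FPKM across CST mice 1 to 3, against 68.3, 155 and 98.3 FPKM across Yoda1 mice 1 to 3. Yoda1 mouse 1 lay just under CST mouse 2, so the groups overlapped, and Yoda1 mouse 2 was more than 1.5 times any other Yoda1 value; the log2 change was -0.75 (SE 0.31). Usp18, the protease that removes ISG15 and blocks IFNAR2 signalling, measured 19.1, 18.03 and 10.3 in the CST mice and 24.8, 34.8 and 38.9 in the Yoda1 mice, with no overlap and a log2 change of -1.03 (SE 0.29). Herc6, the main ISG15 ligase in mice, measured 5.65, 4.39 and 1.87 in the CST mice and 6.198, 5.77 and 8.31 in the Yoda1 mice. Its CST mouse 1 value lay just under that of Yoda1 mouse 2, and its log2 change was -0.71 (SE 0.34). Of the conjugation partners that are no ISG of this set, Ube2l6, the ISG15-conjugating enzyme, measured 38.2, 47.6 and 32.3 in the CST mice and 66.96, 130.1 and 60.6 in the Yoda1 mice (log2 change -1.04), and the activating enzyme gene Uba7 had a log2 change of -0.60. Trim25, an ISG15 ligase that also acts on RIG-I, had one of -0.16.

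The direct antiviral effectors differed among themselves. Mx2, of the dynamin-like GTPases that trap viral nucleocapsids, measured 2.04, 2.85 and 1.77 FPKM across CST mice 1 to 3, against 4.95, 5.36 and 5.58 FPKM across Yoda1 mice 1 to 3, and its paralogue Mx1 measured 6.88, 6.89 and 2.66 in the CST mice and 10.4, 9.61 and 18.3 in the Yoda1 mice. Neither overlapped between the groups, with log2 changes of -0.98 (SE 0.22) and -1.12 (SE 0.38), but Yoda1 mouse 3 alone carried the high Mx1 value whereas the 3 Yoda1 values of Mx2 were close together. GENCODE M21 classes Mx2 as a polymorphic pseudogene. Cmpk2, a mitochondrial nucleotide kinase, measured 5.69, 5.40 and 4.11 in the CST mice and 9.62, 8.396 and 11.8 in the Yoda1 mice, with no overlap and a log2 change of -0.85 (SE 0.23). Bst2, the tetherin that holds budding virus on the cell surface, measured 68.5, 147 and 106 in the CST mice and 169, 430.4 and 136 in the Yoda1 mice. The Yoda1 mouse 2 value of Bst2 was the highest by far and Yoda1 mouse 3 lay under CST mouse 2, so the log2 change of -1.06 (SE 0.47) came with overlapping groups. The other 5 effectors also overlapped. Ifitm3, which blocks fusion of virus in endosomes and was the most abundant of the 39 ISGs, had means of 561 ± 178 in CST and 948 ± 427 in Yoda1 skin (SD, n = 3 each) and a log2 change of -0.71. Samd9l, a restrainer of translation, and the Schlafen genes Slfn5 and Slfn8 had log2 changes of -0.66, -0.56 and -0.54, and CST mouse 1 held the highest Samd9l value of the 6 libraries.

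Rsad2, which encodes viperin, a radical SAM enzyme that makes a chain-terminating nucleotide, stood apart from its neighbour. It lies 12751 bases from Cmpk2 on chromosome 12, transcribed in the other direction, and measured 18.7, 16.6 and 9.41 FPKM across CST mice 1 to 3, against 18.5, 16.4 and 18.4 FPKM across Yoda1 mice 1 to 3. Only CST mouse 3 was low, and the log2 change was -0.29 (SE 0.27). Within each library the ratio of Cmpk2 to Rsad2 was 0.304, 0.326 and 0.436 across CST mice 1 to 3, against 0.520, 0.513 and 0.641 across Yoda1 mice 1 to 3. These ratios did not overlap between the groups, although the pair was singled out after its values were seen. Of the 7 pairs of neighbouring ISGs of this set with gaps of up to 72400 bases, this was 1 of 2 whose ratio did not overlap. The same share over neighbouring pairs of all genes was not worked out. The other was Trim30a with Trim30d, close paralogues that can share reads.

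The PARP group gave no overlap in any of its 4 genes, where 2.08% of all tested genes did not overlap and were lower in CST. Parp9, an inactive ADP-ribosyltransferase that works with the ubiquitin ligase DTX3L (chromosome 16, 35938470 to 35972605 on GRCm38), measured 20.3, 19.7 and 12.8 FPKM across CST mice 1 to 3, against 33.7, 35.1 and 33.4 FPKM across Yoda1 mice 1 to 3. The 3 Yoda1 values lay close together and well above the CST values, and the log2 change was -0.94 (SE 0.23) with an adjusted p of 0.561 by limma. Dtx3l, transcribed the other way from a start site 681 bases off, measured 5.46, 5.49 and 2.73 in the CST mice and 7.16, 5.73 and 7.72 in the Yoda1 mice, a log2 change of -0.54 (SE 0.28). In GENCODE M21 the 2 genes share 458 exonic bases on opposite strands, which is 8% of the exonic length of Dtx3l. The labels used here do not say whether counting used strand or these exons, so reads there cannot be told apart. Parp12, an ADP-ribosyltransferase, measured 12.4, 15.7 and 9.57 in the CST mice and 20.2, 19.6 and 17.1 in the Yoda1 mice. Parp14 measured 11.03, 12.2 and 6.83 in the CST mice and 16.4, 14.00 and 12.8 in the Yoda1 mice. In Parp12 and Parp14 Yoda1 mouse 1 was the highest library, and the log2 changes were -0.58 (SE 0.23) and -0.51 (SE 0.26).

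Among the nuclear body, Trim30 and Phf11 genes the paralogues Phf11d and Phf11b were farthest from 0. Phf11d (chromosome 14, 59347407 to 59365470 on GRCm38) measured 7.395, 7.85 and 6.07 FPKM across CST mice 1 to 3, against 13.9, 18.4 and 23.3 FPKM across Yoda1 mice 1 to 3, a log2 change of -1.25 (SE 0.25) with an adjusted p of 0.521 by limma. Phf11b, which lies 6055 bases away and whose window with 1 core is printed above, measured 10.4, 9.72 and 8.75 in the CST mice and 17.7, 34.4 and 18.7 in the Yoda1 mice, a log2 change of -1.15 (SE 0.28). In both genes the lowest Yoda1 value was more than 1.5 times the highest CST value, but Yoda1 mouse 3 was highest in Phf11d and Yoda1 mouse 2 in Phf11b. Pml, the scaffold of the nuclear bodies that carry its name, measured 11.1, 14.8 and 10.9 in the CST mice and 19.4, 22.5 and 18.4 in the Yoda1 mice, with no overlap and a log2 change of -0.68 (SE 0.21). Sp100, a second component of those bodies, measured 51.2, 53.4 and 38.8 in the CST mice and 67.8, 90.6 and 28.2 in the Yoda1 mice. Sp100 was high in Yoda1 mice 1 and 2 and lowest of all in Yoda1 mouse 3, and its log2 change of -0.23 (SE 0.41) became 0.11 without Yoda1 mouse 2. Trim30a, which dampens Toll-like receptor signalling, measured 38.96, 32.04 and 14.00 in the CST mice and 43.1, 48.1 and 30.3 in the Yoda1 mice, with overlap and a log2 change of -0.59. Its neighbour Trim30d had a log2 change of -0.29 (SE 0.37), which became 0.070 without CST mouse 3.

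Of the remaining 8 ISGs, 5 did not overlap between the groups and 7 stood at an unadjusted p under 0.05 by limma. The shares of all tested genes, lower in CST, were 2.08% and 0.788%. Ifi44, which dampens interferon signalling through FKBP5 (chromosome 3, 151730922 to 151749960 on GRCm38), measured 3.54, 3.87 and 2.73 FPKM across CST mice 1 to 3, against 6.26, 14.4 and 14.9 FPKM across Yoda1 mice 1 to 3. Yoda1 mice 2 and 3 were alike and Yoda1 mouse 1 lay between them and the CST mice, and the log2 change was -1.48 (SE 0.34). Xaf1, which binds the apoptosis inhibitor XIAP, measured 9.41, 15.2 and 9.34 in the CST mice and 19.2, 29.8 and 18.3 in the Yoda1 mice, a log2 change of -0.93 (SE 0.28). Rtp4, a chaperone of receptor transport, measured 44.7, 50.8 and 26.2 in the CST mice and 64.4, 85.03 and 61.7 in the Yoda1 mice, a log2 change of -0.82 (SE 0.29). Both had CST mouse 2 as the highest CST library and no overlap. Tor3a, a torsin ATPase of the endoplasmic reticulum, measured 16.8, 19.2 and 16.99 in the CST mice and 28.4, 32.7 and 22.3 in the Yoda1 mice, a log2 change of -0.61 (SE 0.21). Ifi35 also did not overlap (log2 change -0.65). In Lgals3bp, a secreted galectin-3-binding glycoprotein, the log2 change was -1.02 and Yoda1 mouse 3 lay under CST mouse 2. Ifi27l2a, the second most abundant ISG of the set, had means of 465 ± 139 in CST and 802 ± 272 in Yoda1 skin (SD, n = 3 each) and a log2 change of -0.77, and CST mouse 1 lay above Yoda1 mouse 1. Epsti1 had a log2 change of -0.56, with Yoda1 mouse 3 near the lowest CST value.

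**Figure D3:**
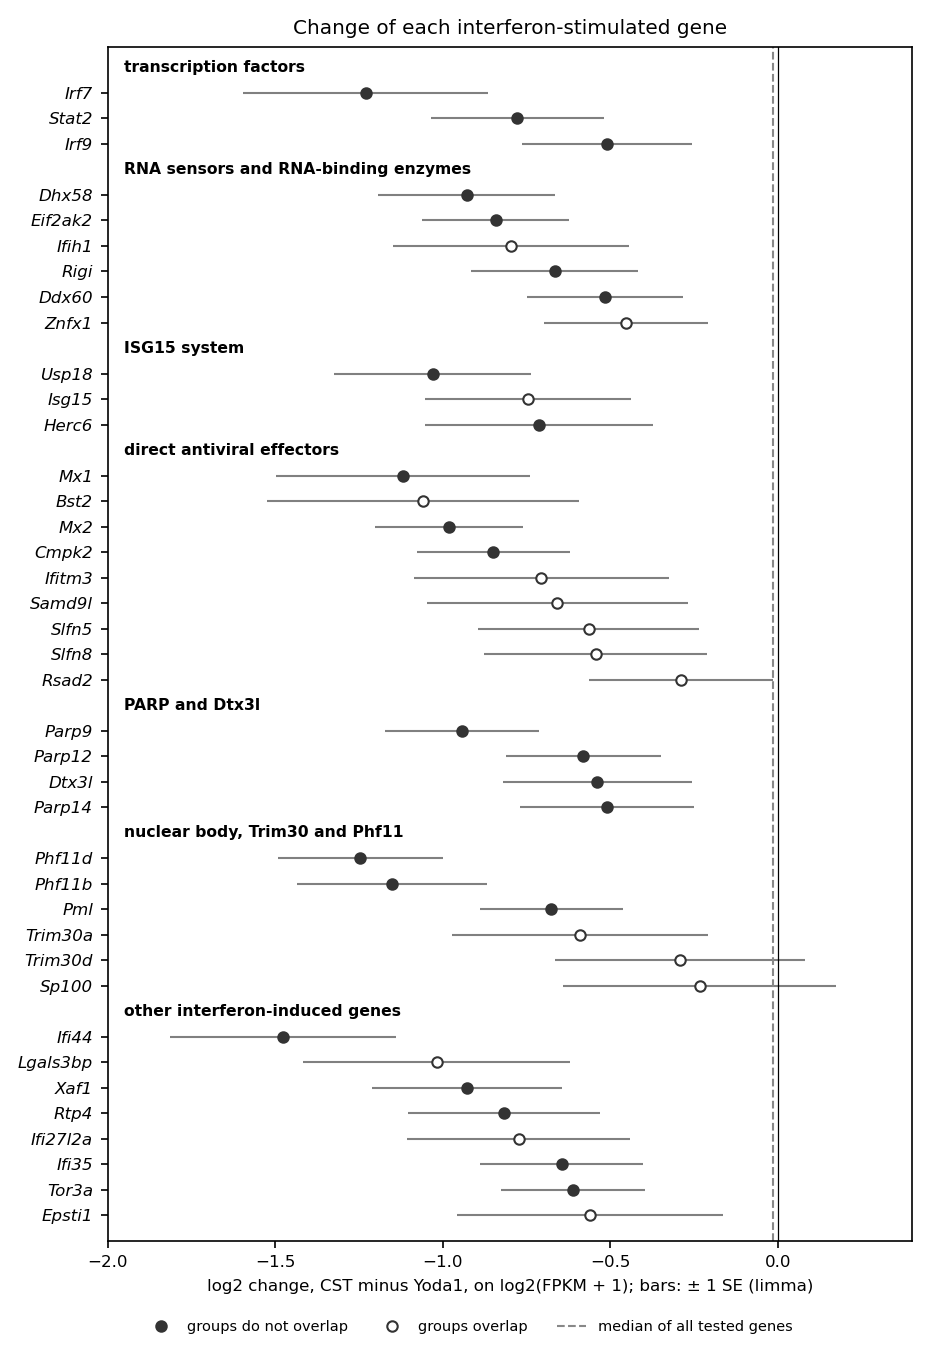
Log2 change of each interferon-stimulated gene (CST minus Yoda1, from log2(FPKM + 1) values) with ± 1 SE from limma (3 libraries a group), by role. All 39 points lie below 0, filled points mark the 24 genes whose groups do not overlap, and the dashed line is the median of all tested genes at -0.01.

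By level the set spanned from 2.69 FPKM (Ddx60) to 755 FPKM (Ifitm3) as means over the 6 libraries, a comparison that FPKM allows because it is per length. Ifitm3, Ifi27l2a, Bst2, Lgals3bp and Irf7 had means above 100 FPKM. As a share of all FPKM, the 39 together made up 0.240%, 0.287% and 0.192% for CST mice 1 to 3, against 0.365%, 0.573% and 0.347% for Yoda1 mice 1 to 3. The shares did not overlap between the groups. The most abundant genes weigh most in them, and Ifitm3 and Ifi27l2a each overlapped between the groups.

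Interferon genes themselves were hardly detected. Of 21 interferon genes of types I, II and III, 15 were listed at 0 in every library, and the recovered reads over all 21 summed to between 0 and 7 per library. Ifnb1, the interferon-beta gene, had 1 read in CST mouse 1 and 0 elsewhere. Ifng, the interferon-gamma gene, had 3 reads in CST mouse 2, 2 in Yoda1 mouse 1 and 5 in Yoda1 mouse 2, and Ifnk, the interferon-kappa gene of keratinocytes, had at most 2 reads in a library. Ifnab had 1, 2 and 3 reads across CST mice 1 to 3 and 0 in each Yoda1 mouse. Ifna13 and Ifnz had reads in Yoda1 mice only, at most 1 in a library. Counts this low cannot show whether these genes differed between the groups.

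The lists for the steps between ligand and target had medians closer to 0 than that of the ISGs. In the list of receptors, kinases and feedback genes, 8 of 10 tested genes had a lower mean in CST, with a median log2 change of -0.20, and 0 of 10 stood at an unadjusted p under 0.05 by limma. The receptor genes Ifnar1 and Ifnar2 had log2 changes of -0.35 (SE 0.23) and -0.37 (SE 0.28), both with overlapping groups. In the list of sensors, adaptors and factors that induce interferon the median was -0.29 over 15 tested genes. Of these, 13 were lower in CST and 3 did not overlap (2.08% of all tested genes lower in CST). Tlr3, the endosomal sensor of double-stranded RNA, measured 4.39, 4.82 and 3.06 in the CST mice and 7.54, 7.11 and 5.96 in the Yoda1 mice (log2 change -0.64). The nucleic acid sensor gene Zbp1 had a log2 change of -0.97, and Irf3, the factor that TBK1 activates, had one of 0.10. Whether the ISGs differed from these lists was not tested.

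The related ISG families also had lower CST means. In the Ifit family 5 of 6 genes were tested, all 5 with a lower mean in CST (median -1.08). In the Oas family 8 of 9 tested genes were lower (median -0.63), and among the Gbp and immunity-related GTPases 13 of 13 were (median -0.79). The groups did not overlap in 4, 2 and 10 genes of these lists, against 2.08% of all tested genes lower in CST. In a list of interferon-gamma-inducible genes the median was -0.44, with 10 of 11 lower, and the chemokine gene Cxcl9 measured 2.49, 3.94 and 3.68 in the CST mice and 6.71, 8.92 and 7.25 in the Yoda1 mice (log2 change -0.99). Cd274, which encodes the checkpoint ligand PD-L1, was the 1 tested gene of that list with a higher mean in CST (log2 change 0.60, SE 0.35). Its groups overlapped, and CST mouse 1 was the highest library. The ISRE core stood in 5 of 6 Ifit, 5 of 9 Oas and 11 of 12 Gbp and GTPase genes with a promoter entry, in 11 of 20 (55%) of the interferon genes, which were hardly detected here, and in 2 of 10 of the interferon-gamma-inducible list. It stood in 1 of 10 of the receptor list, 1 of 13 of the induction list and 0 of 3 of the ISG15 partners.

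**Figure D4:**
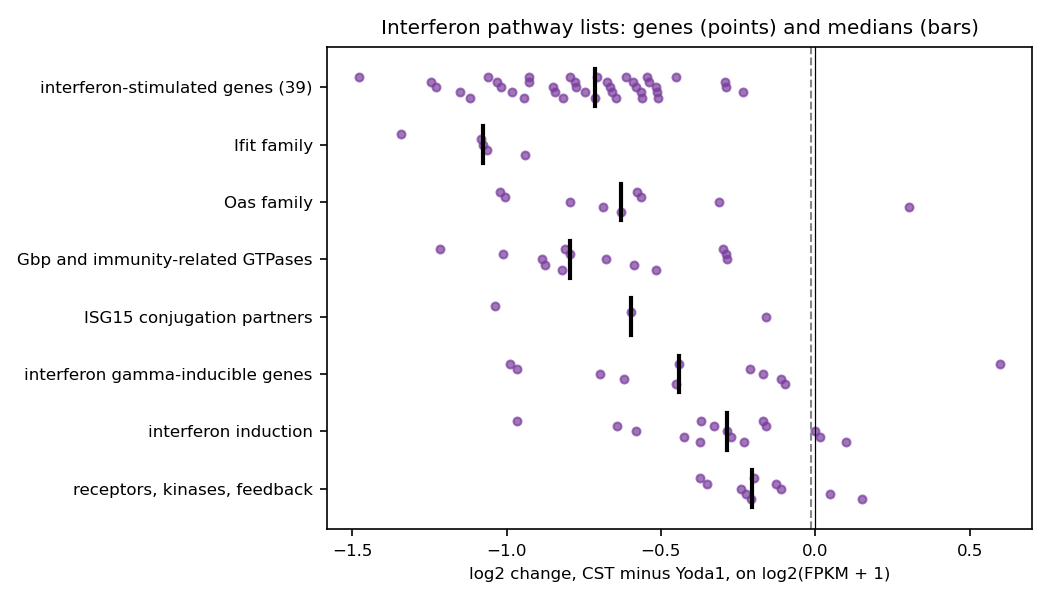
Log2 change (CST minus Yoda1, from log2(FPKM + 1) values) for each tested gene (points) of the 39 interferon-stimulated genes and of other interferon lists, with the median of each list as a bar. The medians run from -1.08 for the Ifit family to -0.20 for receptors, kinases and feedback, and the dashed line is the median of all tested genes.

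Markers of cell types were read beside these values, and in bulk tissue fewer cells of a type and less RNA per cell cannot be told apart. Macrophage and monocyte markers had a lower mean in CST in 14 of 15 genes (median log2 change -0.63), with a summed level of 1688 to 2499 FPKM in CST and 1640 to 5502 FPKM in Yoda1 libraries and none at 0. The groups did not overlap in 1 of the 14. The other marker, Cd14, was higher in CST without overlap, at 392, 142 and 149 FPKM across CST mice 1 to 3. It measured 107, 63.2 and 48.7 FPKM across Yoda1 mice 1 to 3 (log2 change 1.54, SE 0.45). The macrophage score, the mean log2(FPKM + 1) of the list, was 6.27, 6.23 and 5.61 across CST mice 1 to 3, against 6.90, 7.04 and 5.75 across Yoda1 mice 1 to 3. The same score of the 39 ISGs was 4.33, 4.43 and 3.84 across CST mice 1 to 3, against 4.87, 5.17 and 4.83 across Yoda1 mice 1 to 3. Yoda1 mouse 3 had a macrophage score below those of CST mice 1 and 2 and an ISG score above those of all 3 CST mice. It is 1 of the 2 libraries that stood apart in mitochondrially encoded RNA. With the macrophage score as a covariate the median log2 change of the ISGs was -0.58 and 37 of 39 were lower in CST. In that limma fit 13 stood at an unadjusted p under 0.05 (0.699% of all tested genes lower in CST). With 6 libraries this fit cannot separate treatment from macrophage content, and the part of macrophages in the ISG values was not tested.

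Fibroblast markers were lower in CST in 10 of 10 genes (median -0.51) and keratinocyte markers higher in 14 of 14 (median 0.19), with overlapping groups in each of these 24 genes. Fibroblast markers summed to 3914 to 6373 FPKM in CST and 3738 to 11910 in Yoda1 libraries, and keratinocyte markers to 19997 to 25947 and 14568 to 34828. Neutrophil markers were higher in CST in 8 of 8 tested genes (summed level 1797 to 11178 against 743 to 4130 FPKM), and with their score as a covariate the ISG median was -0.80 with 39 of 39 lower. Skeletal muscle markers were higher in CST in 17 of 17 tested genes, with a median log2 change of 3.99, larger in size than that of the ISGs. The groups did not overlap in 16 of the 17, against 4.52% of all tested genes in that direction. These markers summed to 8507 to 16404 FPKM in CST and 135 to 6252 in Yoda1 libraries. With muscle and mitochondrially encoded genes removed and the rest rescaled the ISG median was -0.72. This step changes only the scaling of each library and not its tissue content. Plasmacytoid dendritic cells, a main source of interferon-alpha, were represented by Siglech at 0.535 to 1.73 FPKM and Ccr9 at 0.306 to 0.853, with 4 of 7 tested genes of that list lower in CST. The list's summed level of 1458 to 1777 FPKM in CST and 1271 to 2137 in Yoda1 libraries is mostly Ly6d (1253 to 1486 and 1022 to 2056 FPKM), a gene that keratinocytes also express, and Cox6a2 is also a muscle gene, so the sum is no measure of these cells. The part of fibroblasts, keratinocytes, neutrophils, skeletal muscle and plasmacytoid dendritic cells in the ISG values was not tested.

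**Figure D5:**
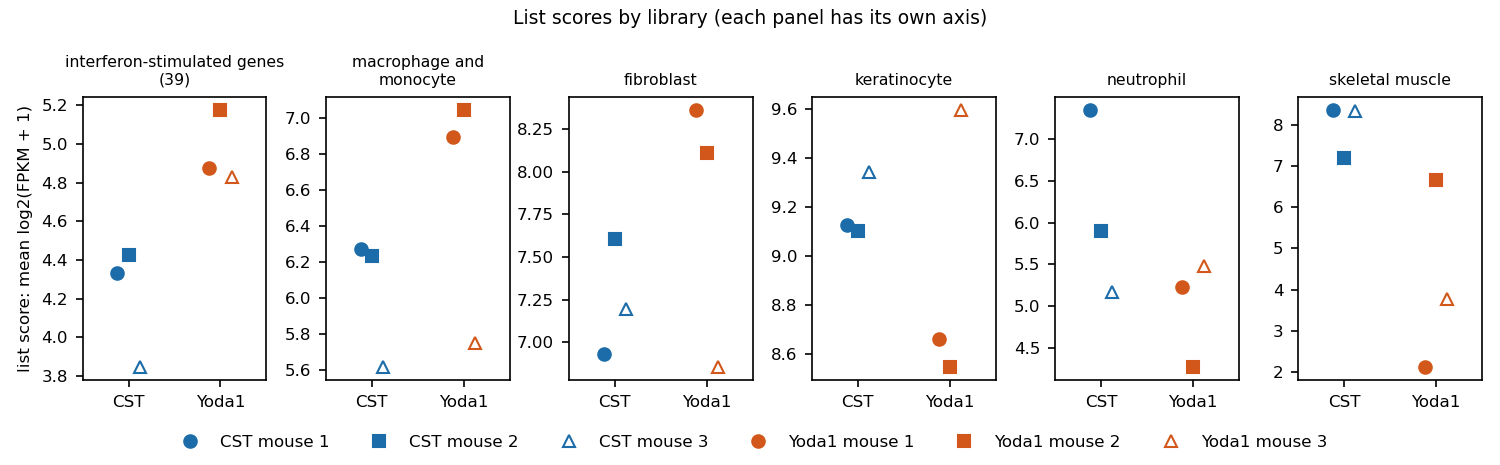
Score of each list (mean log2(FPKM + 1) of its tested genes) in the 6 libraries, with CST in blue and Yoda1 in orange and a separate vertical axis for each panel. The scores of the 39 interferon-stimulated genes separate the groups (3.84 to 4.43 against 4.83 to 5.17), and so do the muscle scores in the other direction, while the macrophage, fibroblast, keratinocyte and neutrophil scores overlap.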

How the data were processed

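RNA-seq of skin was measured in 3 CST-treated and 3 Yoda1-treated mice, numbered as separate mice in the labels. The table deposited by the authors gives FPKM values for all 6 libraries, with gene symbols and Ensembl identifiers, and no count column was used. GRCm38 and mm10 are the builds listed per the submitters' processing notes. Aligner, counter and strand setting were not given in the sources used here. Whole reads were worked out from the spacing of the deposited FPKM values (tolerance 0.001), which gave whole numbers for 100% of 30697 genes, against 1.35% of 2000 genes with wrong depths. They are the smallest whole numbers that fit, so true numbers can be larger.

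Groups were compared with limma 3.58.1 (R 4.3.3) with a trended prior on log2(FPKM + 1), over genes with a mean of 1 FPKM or more, with no covariate and Benjamini-Hochberg adjustment over all 14588 genes. A fold change on this scale understates the change of low genes. With 3 against 3 libraries an exact permutation test of 1 gene cannot go below p = 0.10, so none is given. The fit was also run on simulated reads, at an adjusted p under 0.05 by limma. It called 26 of 50 genes set 2-fold apart, 50 of 50 set 4-fold apart and 10 of 14388 unchanged genes. The simulation gave every gene the same dispersion and no difference in tissue content. It therefore does not show how often changes like those of the ISGs would be called in these libraries. In a sentence on overlap, groups do not overlap where each library of 1 group lies above each of the other.

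The 39 genes and all gene lists were chosen with earlier results of these data known, so their counts are descriptions. The rule for named genes accounts for all 39, and gives all 6 values for up to 4 genes of each role with the smallest p, for all transcription factors and for the ISG15 genes. Up to 4 genes of each other interferon list are named by p, with Ifnar1, Ifnar2, Ifnb1, Ifng and Irf3. The 6 values of Rsad2, Sp100 and Cd14, and the genes Cd274, Ifnab, Ifna13 and Ifnz, stand outside that rule and were added after their values were seen. Some genes of these lists are not reported here and were left out of the list counts.

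Gene positions are from GENCODE M21 (GRCm38), and promoter sequences from the RefSeq table of GRCm38.p6. Of 52029 deposited identifiers found in GENCODE M21, 2.81% had the deposited start there. The annotation behind the FPKM values is therefore unclear, and its exons can differ from those used here. Paralogues (Mx1 and Mx2, Phf11b and Phf11d, Trim30a and Trim30d, Slfn5 and Slfn8) can share reads. In GENCODE M21 other annotated genes share 16.8% of the exonic bases of Ifi35, 13.9% of Rtp4 and 13.7% of Herc6. Alternatives changed the pseudocount, filter, scaling, prior, library weights, covariates, replicate block and libraries used.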

Additional observations from a re-analysis of the deposited data

How the results depend on the processing

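Over 19 alternatives the median log2 change of the 39 interferon-stimulated genes stayed below 0 in each, and between -0.81 and -0.58 when 1 library was left out. No member passed an adjusted p of 0.05 by limma in 18 of the 19, and 15 did with library weights, where 1348 of all genes passed (4.75% lower in CST); the weights ran from 0.193 for Yoda1 mouse 3 to 12.8 for Yoda1 mouse 1. The count at an unadjusted p under 0.05 was 13 with the macrophage score as a covariate and 11 to 26 when 1 library was left out, and the cause was not tested. The 26, without Yoda1 mouse 3, stand beside 6.8% of all genes lower in CST, against 0.788% with all libraries. Groups did not overlap in 37 members without CST mouse 1 and Yoda1 mouse 3, where fewer libraries are compared, and in 24 to 34 when 1 library was left out, where the 34, without Yoda1 mouse 3, stand beside 16.3% of all genes. Sp100 and Trim30d had the opposite sign with the macrophage covariate (0.33 and 0.15), and ran from -0.71 to 0.11 and from -0.55 to 0.070 when 1 library was left out. Over all genes 136 passed without Yoda1 mouse 2, 1 of them lower in CST, and 8 without CST mouse 2. With the replicate number as a block in limma, 0 members passed and the median was -0.71. There 21 stood at an unadjusted p under 0.05, beside 1.06% of all genes lower in CST. Same-numbered libraries correlated at -0.077, 0.208 and -0.197 in their deviations from the group means, and the other pairs ran from -0.343 to 0.344. With 3 libraries a group these values cannot show whether the numbers pair the mice. Depth limits the interferon genes themselves, with 0 to 7 reads per library.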
